A study of Mus musculus with 20 samples.

Results

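The genes described here encode the proteins of the cytosolic ribosome. They were chosen by symbol alone: every gene named Rpl or Rps followed by a number, with the closely related suffixed symbols, together with the acidic stalk genes Rplp0, Rplp1 and Rplp2. The rule found 88 genes among 55487 symbols in the prefrontal cortex table and the same number among 57180 identifiers in the hippocampal table. Of the 88, 53 carried an Rpl or Rplp symbol (large subunit) and 35 an Rps symbol (small subunit). No measured value entered the choice.

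The RNA came from wild-type C57/BL6 mice aged 2 to 6 months, all of one genotype. Male mice were injected in the peritoneum with 5 mg/kg lipopolysaccharide (LPS, an endotoxin of Gram-negative bacteria that provokes systemic inflammation) or with 0.9% saline, and their prefrontal cortex was taken 24 hours later (n = 4 libraries each). Other mice were given nicotine, which opens nicotinic acetylcholine receptors, at a dose of 0.2 mg/kg, or 0.9% saline, and their hippocampus was collected after 24 hours (n = 6 each). The labels give neither the sex of these animals nor the route. Each tissue had its own batch and its own table, so no test was made across tissues. The labels of 4 of the 8 cortical libraries (Samples 2L, 4L, 6L and 8L) contradict themselves: the column name that each quotes carries one treatment, and its title and treatment entry the other. The groups follow the column name. Saline is therefore Samples 1L, 3L, 6L and 8L, and LPS is Samples 2L, 4L, 5L and 7L. In hippocampus saline is Samples 1N to 6N and nicotine is Samples 7N to 12N.

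Ribosomal proteins assemble with ribosomal RNA into the small subunit, which reads the messenger RNA, and the large subunit, which joins amino acids. Their transcripts are among the most abundant in any cell. Many start with a C followed by a run of pyrimidines, the terminal oligopyrimidine (TOP) motif, through which the growth-sensing kinase complex mTORC1 controls their translation. In the brain they are carried by neurons and glia alike, so a change in a bulk library can reflect fewer cells of a type or less RNA per cell, and these cannot be told apart.

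Total counts ran from 36371084 to 46106526 in cortical libraries and from 51969343 to 68196280 in hippocampal ones. Lcn2, an acute-phase gene, stood at 254 to 367 CPM (normalised CPM, the share of a library's counts scaled to a fixed total) in every library whose column says LPS. In those whose column says saline Lcn2 stood at 0.676 to 1.385 CPM in Samples 1L, 3L and 6L and at 13.5 CPM in Sample 8L. Mean log2 CPM of 7 cortical markers was 5.68 to 6.37 in the cortical libraries, and that of 8 hippocampal markers was 5.75 to 6.39 in the hippocampal libraries, with none of these genes at 0. Markers of striatum, the region beneath the cortex, ranged from 3.61 to 6.54 in the cortical libraries. Those of choroid plexus, the epithelium that makes cerebrospinal fluid, ranged from 0.236 to 5.37 in the hippocampal libraries. Neither range separated treated from saline libraries.

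Of the 88 genes, 82 are annotated as protein coding and 6 as pseudogenes in GENCODE vM21. Expression was sufficient for a test in 80 genes in prefrontal cortex and 81 in hippocampus. The genes left out were at or near 0. Rpl24, Rpl32l, Rpl10l and Rps3a3 were listed at 0 in both tables, and Rpl13 was listed at 0 in prefrontal cortex only. In hippocampus Rpl13 stood at 226 ± 43.5 CPM with saline (SD, n = 6). Rps10, Rpl39l and Rps12l1 had 35, 21 and 17 counts over all cortical libraries, and 64, 43 and 9 over all hippocampal libraries. Every cell needs Rpl13, Rpl24 and Rps10, so these entries are not read as levels of expression. In the annotation 71.5% of the Rpl24 transcript and 91.6% of the Rps10 transcript are shared with another gene on the same strand, whereas no exon base of Rpl13 is. Rpl10l and Rpl39l are testis-expressed relatives of Rpl10 and Rpl39.

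With saline the median gene stood at 153 CPM in prefrontal cortex and 152 CPM in hippocampus, and 71 and 72 genes stood at 50 CPM or more, reaching 491 and 482 CPM. Per kilobase of transcript, the scale on which genes can be compared, Rplp1 was the most abundant in both tables, at 959 CPM per kb in prefrontal cortex and 846 in hippocampus. In prefrontal cortex Rps29 (587 CPM per kb) and Rps15 (545) came next, and in hippocampus Rps15 (563) and Rpl41 (528). In prefrontal cortex Rplp2 (448), Rpl41 (443), Rps28 (438) and Rpl9 (419) followed, and their gaps lay within the spread between libraries. The gap between Rps15 and Rpl41 in hippocampus did too. Genes of a library share part of this spread, and these genes were not compared inside each library, so their order is not decided. That spread was a median of 7.90% of the mean in cortical saline and 19.9% in hippocampal saline. Near the lower end in prefrontal cortex stood Rpl13a (11.1 CPM per kb) and Rps27l (10.4), a relative of Rps27 known as a p53 target. Their gap lay within the spread too. Rpl3l, a muscle form of Rpl3, stood at 0.190 CPM per kb. Rpl6l and Rps3a2, at 1.26 and 1.41 CPM per kb, are processed pseudogenes 98.7% and 99.5% identical to Rpl6 and Rps3a1 over the aligned transcript, so how reads were shared between them is uncertain.

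RefSeq promoter sequences (build GRCm38.p6) matched 63 of the 88 genes. A C followed by at least 4 bases that are C or T began exactly at the annotated start in 13 of the 63 (20.6%), against 2.49% of 27025 genes with a promoter entry, and within 10 bases of the start in 58.7% against 30.8%. The sequence CCGGAAG, the core bound by ETS factors, lay on either strand of the 300-base promoter in 38.1% against 9.12%, and AAGATGGC, bound by YY1, in 7.94% against 2.88%. A TATAAA between 40 and 15 bases before the start was found in 1.59% against 2.22%. These are matches of letters, not measured sites, and CCGGAAG read from the other strand begins with such a pyrimidine run, so a stretch can count for both. Of the 10 genes that fell with LPS, described after the sequences, 6 had a promoter entry, and 3 of these held a run within 10 bases of the start. The 5 windows below run from 60 bases before the start to 20 bases after it, 80 bases each, with the pyrimidine run within 10 bases of the start in capitals. Rps6, Rpl13a and Rpl22l1 hold such a run, and Rpl10 and Rpl22 hold none. Whether a run is found depends on the RefSeq start used. That start lay 45 bases from the GENCODE transcript start for Rps6, 16 for Rpl13a, 72 for Rpl22l1, 4 for Rpl10 and 127 for Rpl22. The windows are shown because Rpl13a, Rpl22l1 and Rpl10 carried the largest falls with LPS. Rpl22 is the relative with which Rpl22l1 is compared, and phosphorylation of the Rps6 protein is a usual readout of mTORC1.
Rps6, chr4:86857348-86857427, minus strand: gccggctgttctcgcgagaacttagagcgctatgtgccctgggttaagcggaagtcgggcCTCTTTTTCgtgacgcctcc
Rpl13a, chr7:45128726-45128805, minus strand: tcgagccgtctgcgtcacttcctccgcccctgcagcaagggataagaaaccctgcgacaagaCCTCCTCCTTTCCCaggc
Rpl22l1, chr3:28805448-28805527, plus strand: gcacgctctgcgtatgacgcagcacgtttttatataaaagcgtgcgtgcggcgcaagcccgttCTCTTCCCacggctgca
Rpl10, chrX:74270756-74270835, plus strand: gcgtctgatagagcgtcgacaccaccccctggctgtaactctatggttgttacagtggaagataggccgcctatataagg
Rpl22, chr4:152325666-152325745, plus strand: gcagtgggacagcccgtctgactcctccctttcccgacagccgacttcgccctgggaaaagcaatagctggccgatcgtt

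In prefrontal cortex the ribosomal protein genes leaned lower with LPS by a small amount, and single genes stood out on either side. Of 80 genes tested, 10 fell and 1 rose at an adjusted p under 0.05 (edgeR quasi-likelihood test, Benjamini-Hochberg adjustment over all 17760 genes). These are 12.5% and 1.25% of the genes, while 19.7% of all genes tested were called lower and 21.5% higher, 41.2% in all. In this fit of all cortical libraries the share called was thus below the background in both directions. In 7 genes (8.75%) every LPS library lay below every saline library, and in 1 (1.25%) above, against 17.9% and 19.2% of all genes. The log2 change was below 0 in 67 of 80 genes (83.8%), against 49.1% of all genes. Its median was -0.09 (quartiles -0.16 and -0.03) beside 0.01 for all genes, and its median size regardless of sign was 0.10 beside 0.31. Both subunits shared the lean, with a median of -0.08 over 48 large-subunit genes (6 lower) and of -0.11 over 32 small-subunit genes (4 lower, 1 higher). Among genes at 64 CPM or more, 8 of 70 ribosomal protein genes were called lower and 0 higher, while 648 of 3662 genes of any kind were called lower and 1048 higher.

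Of the large-subunit genes, Rpl13a, whose protein also belongs to an interferon-responsive complex that silences inflammatory transcripts in myeloid cells, fell most. It stood at 11.2, 11.2, 12.4 and 11.7 CPM in saline Samples 1L, 3L, 6L and 8L. In the LPS Samples 2L, 4L, 5L and 7L it stood at 8.78, 6.90, 7.40 and 8.01 CPM. Every LPS library lay below every saline library, and the log2 change was -0.58 (SE 0.12, adjusted p = 0.00223). Rpl13a (chromosome 7, 45125558 to 45128761, minus strand, mm10) was measured far below the median of 153 CPM, and 59.3% of its transcript is shared with Gm45713 on the same strand, which had 2 counts over the 8 libraries. How reads in shared exons were counted is not given in the sources used here, so this value may rest on part of the transcript.

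Rpl22l1, a paralogue of Rpl22, stood at 25.3, 27.3, 23.4 and 24.95 CPM with saline. With LPS it stood at 15.1, 15.9, 19.3 and 21.1 CPM. The groups did not overlap, and Rpl22l1 fell by 0.50 on the log2 scale (SE 0.12, adjusted p = 0.00571). Rpl22 itself, which is known to bind and repress the Rpl22l1 transcript, ran from 74.8 to 91.6 CPM with saline and from 74.3 to 95.6 CPM with LPS. Its highest saline value came from Sample 3L and its highest LPS value from Sample 7L, the groups overlapped, and the log2 change was 0.06 (95% interval -0.14 to 0.27).

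Rpl10, which joins the large subunit late in its maturation, stood at 122.5, 158.5, 129.7 and 125.2 CPM with saline and at 99.9, 92.7, 104.8 and 110.5 CPM with LPS. The groups did not overlap, and Rpl10 fell by 0.39 on the log2 scale (SE 0.09, adjusted p = 0.00546). Rpl9 stood at 253 to 325 CPM with saline and 209 to 269 CPM with LPS, overlapping through Sample 7L, with a log2 change of -0.31 (SE 0.10, adjusted p = 0.0248). Rpl37a stood at 95.5 to 104 CPM with saline and at 74.8 to 79.9 CPM in 3 LPS libraries, with Sample 7L at 95.01 CPM just below the lowest saline library (-0.29, SE 0.08, adjusted p = 0.0150). Rpl9 lost its call without Sample 3L (adjusted p = 0.0619) and without Sample 4L (0.0750), and Rpl37a without Sample 4L (0.0501). Rpl23a fell by 0.20 on the log2 scale (adjusted p = 0.0320). It lies outside the rule for named genes and was added after its value was seen, and 55.4% of its transcript is antisense to exons of Tlcd1.

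Among the small-subunit genes that fell were Rps29 and Rps9. Rps29, which encodes a small zinc-binding protein, stood at 225, 224, 236 and 232 CPM with saline. With LPS it stood at 185, 167, 181 and 211 CPM, again without overlap (-0.30, SE 0.08, adjusted p = 0.00827). Rps9 stood at 188 to 227 CPM with saline and at 157 to 164 CPM in 3 LPS libraries, while Sample 7L at 195 CPM lay inside the saline range (-0.28, SE 0.09, adjusted p = 0.0234). Rps9 lost its call without any 1 of Samples 3L, 4L, 5L or 6L (adjusted p = 0.0524 to 0.0613). Over the 4 libraries whose labels agree, Rps29, Rps9, Rpl9 and Rpl37a did not pass (adjusted p = 0.191 to 0.269).

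The gene that rose was Rps4l, an intronless copy of the X-linked Rps4x on chromosome 6 (148354656 to 148355598, plus strand), annotated as a transcribed processed pseudogene. It stood at 16.3, 16.1, 18.9 and 14.3 CPM in the saline Samples 1L, 3L, 6L and 8L. In the LPS Samples 2L, 4L, 5L and 7L it stood at 26.5, 25.6, 22.1 and 24.0 CPM. Every LPS library lay above every saline library, and the log2 change was 0.58 (SE 0.11, adjusted p = 0.00143). Rps4x (chromosome X, 102184941 to 102189394, minus strand) went from 184.7 ± 14.99 to 166.3 ± 10.2 CPM (SD, n = 4 each) and did not pass (-0.15, adjusted p = 0.128). The transcripts of this pair are 80.1% identical over 797 aligned positions, and the longest identical stretch is 35 bases. The first 90 coding bases of Rps4x and the matching 90 bases of Rps4l, from the GENCODE vM21 transcripts, are shown because they carry 15 differences, in capitals, by which reads of the copies can be told apart.
Rps4x: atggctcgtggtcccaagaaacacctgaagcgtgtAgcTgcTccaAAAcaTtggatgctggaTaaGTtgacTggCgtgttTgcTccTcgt
Rps4l: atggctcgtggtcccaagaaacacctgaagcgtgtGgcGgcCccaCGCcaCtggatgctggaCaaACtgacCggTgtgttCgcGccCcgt

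**Figure D1:**
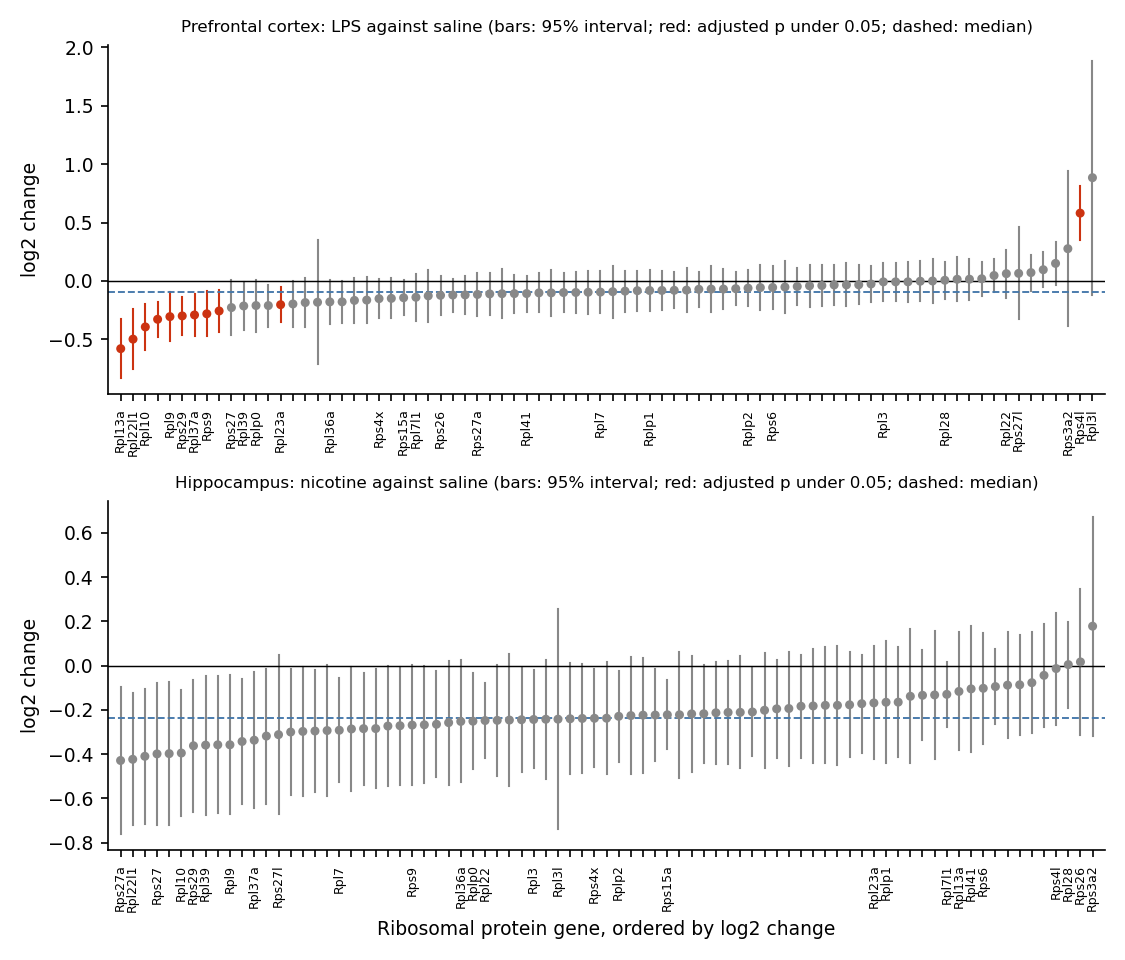
Log2 change of each tested ribosomal protein gene, with LPS in prefrontal cortex (80 genes, upper panel) and with nicotine in hippocampus (81 genes, lower panel), ordered by value, with the genes described in the text labelled; points are edgeR estimates, bars their 95% intervals, red marks an adjusted p under 0.05 and the dashed line is the median. With LPS 10 genes toward the lower end and Rps4l near the upper end are red around a median of -0.09, and with nicotine none is red around a median of -0.24.

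The remaining genes followed by name did not pass. The stalk proteins, which recruit the elongation factors, gave log2 changes of -0.21 for Rplp0 (95% interval -0.43 to 0.01), -0.08 for Rplp1 (-0.25 to 0.09) and -0.06 for Rplp2 (-0.22 to 0.09). Rps6, the substrate of the S6 kinases downstream of mTORC1, stood at 185 ± 22.2 CPM with saline and 178 ± 5.85 with LPS, with a log2 change of -0.06 (-0.24 to 0.13). Rpl3, which reaches to the peptidyl transferase centre, had -0.01 (-0.17 to 0.16) and Rpl41, the shortest of the proteins, -0.11 (-0.26 to 0.05). Rps27 and Rps27a, the latter made as a fusion with ubiquitin, had -0.23 (-0.46 to 0.00) and -0.12 (-0.30 to 0.07). Rpl39 had -0.21 (adjusted p = 0.0893) and the X-linked Rpl36a -0.18 (adjusted p = 0.112). Rpl7, Rpl7l1 and Rps27l had -0.10, -0.14 and 0.06, and Rpl3l, under 1 CPM in every library, had 0.88 (-0.12 to 1.89). Intervals of 72 of the 80 genes lay within -0.5 and 0.5.

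The lean differed between libraries as well as between groups. The 88 genes together took 1.25%, 1.44%, 1.30% and 1.24% of the counts in the saline Samples 1L, 3L, 6L and 8L. In the LPS Samples 2L, 4L, 5L and 7L they took 1.16%, 1.15%, 1.16% and 1.29%. A pair of libraries stood apart: saline Sample 3L held the highest value of 55 of the 79 genes above 1 CPM, and LPS Sample 7L held the highest value of another 18 and lay inside the saline range. Sample 4L held the lowest value of 31 genes, Sample 2L of 25 and the saline Sample 8L of 14. Measured against each gene's mean over the 8 libraries, the median gene stood 0.21 higher on the log2 scale in Sample 3L and 0.09 higher in Sample 7L, within -0.03 and 0.02 in the other saline libraries and at -0.11, -0.11 and -0.06 in the other LPS libraries. The mean log2 CPM of the 79 genes was 6.93 ± 0.100 with saline and 6.84 ± 0.0914 with LPS, a difference about as large as the SD within a group.

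**Figure D2:**
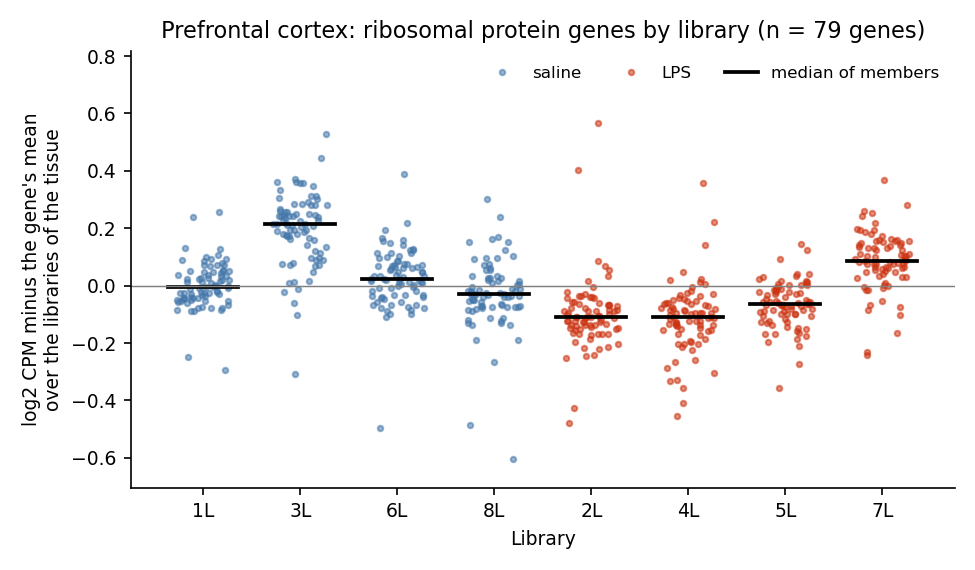
Each point is a ribosomal protein gene (79 genes above 1 CPM) in 1 cortical library, plotted as log2 CPM minus the gene's own mean over the 8 libraries, with saline libraries on the left, LPS libraries on the right and black bars for medians. The medians run from -0.11 in Samples 2L and 4L to 0.21 in Sample 3L, and LPS Sample 7L at 0.09 lies above 3 of the saline libraries.

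Single libraries moved the count of genes called lower from 10 to 6 without Sample 3L, to 5 without Sample 4L and to 18 without Sample 7L, while Rps4l rose each time. Over all genes 3285 of 18072, 2825 of 17957 and 3317 of 18055 were called lower in these fits. The family's share was below that of all genes without Sample 3L or 4L and above it without Sample 7L (18 of 80). Over the 4 libraries whose labels agree, 3 genes were lower and 1 higher, beside 2864 lower and 2826 higher of all 17883 genes. Under the grouping by title 0 were called in either direction, as were 0 of all 17760 genes, and the median was 0.01. With the level of oligodendrocyte markers as a covariate 0 genes were called lower or higher (600 and 857 of all genes were called lower and higher in that fit), the median being -0.08. The marker counts that follow stand beside 19.7% of all genes called lower and 21.5% higher. Of 8 oligodendrocyte markers 3 were lower with LPS and none was at 0. Their mean log2 CPM was 7.35 to 7.63 with saline and 6.85 to 7.27 with LPS. These ranges do not overlap, so in the covariate fit the markers and LPS cannot be told apart. Microglia markers (5 of 9 lower, 2 higher) ran from 5.53 to 5.62 with saline and 4.88 to 5.14 with LPS, and endothelial markers (4 of 8 lower, 2 higher) from 4.51 to 4.70 and 3.78 to 4.17, with none at 0. Of 10 leukocyte markers 3 could be tested and 1 was higher, and the mean was -0.69 to 0.19 with saline and 0.21 to 1.58 with LPS. The part of oligodendrocyte, microglial, endothelial and leukocyte RNA in the result was not tested.

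Relatives within the family were compared inside each library, where the normalisation cancels. The level of the whole family cancels only where both genes follow it, and Rps4l did not always do so. Relative to their own means, Rps4x stood at 0.24 and Rps4l at -0.31 on the log2 scale in Sample 3L. In Sample 2N they stood at 0.48 and -0.07. The comparison of relatives was chosen after the values were seen. In prefrontal cortex Rps4l amounted to 7.79% to 10.8% of Rps4x with saline and 13.3% to 16.8% with LPS, a difference of 0.74 in log2 ratio (SE 0.14). Rpl22l1 amounted to 29.8% to 33.4% of Rpl22 with saline and 19.9% to 23.5% with LPS (-0.57, SE 0.07). Neither pair overlapped between groups, and each gave p = 0.0286 in a two-sided exact permutation test, the smallest p that 4 against 4 libraries allow, or an adjusted p of 0.0935 over the 8 ratios examined in both tissues. For Rps27l against Rps27 the difference was 0.31 (exact permutation p = 0.0571) and for Rpl7l1 against Rpl7 it was -0.05 (p = 0.629). With nicotine in hippocampus the same ratios differed by 0.20 for Rps4l (exact permutation p = 0.0584), -0.18 for Rpl22l1 (p = 0.0779), 0.10 for Rps27l (p = 0.476) and 0.16 for Rpl7l1 (p = 0.0476), with adjusted p values of 0.0935 to 0.544. No ratio passed after adjustment. With 4 against 4 libraries the smallest possible p is too large for the cortical ratios to pass by themselves over 8 ratios. Their adjusted p values therefore do not decide whether these ratios changed.

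**Figure D3:**
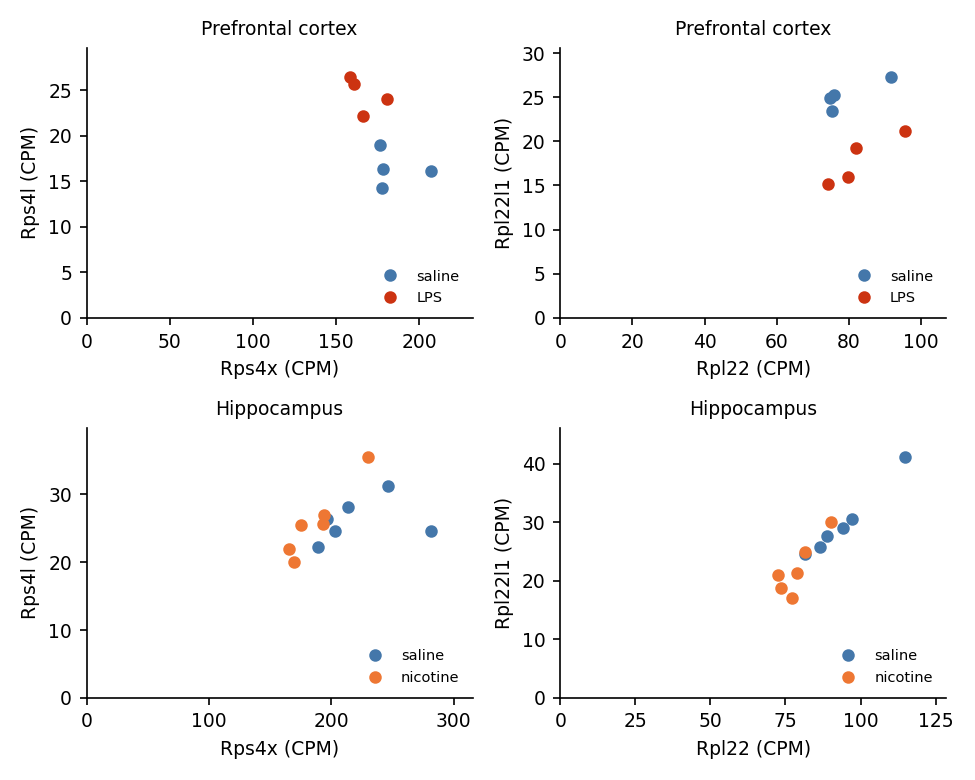
Level of Rps4l against Rps4x (left) and of Rpl22l1 against Rpl22 (right) in CPM, 1 point per library, in prefrontal cortex (upper row) and hippocampus (lower row). In prefrontal cortex the LPS libraries lie above the saline libraries for Rps4l (22.1 to 26.5 against 14.3 to 18.9 CPM) and below them for Rpl22l1 (15.1 to 21.1 against 23.4 to 27.3 CPM), whereas the hippocampal groups overlap.

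In hippocampus nearly all ribosomal protein genes were lower on average with nicotine, and none passed the test. With edgeR 0 of 81 were called in either direction, as were 0 of all 18873 genes (0%), and the smallest adjusted p was 0.555. DESeq2 and limma-voom also called 0 of these genes. The log2 change was below 0 in 78 of 81 genes (96.3%), against 49.1% of all genes, and its median was -0.24 (quartiles -0.28 and -0.18) beside 0.00. At an unadjusted p under 0.05, 33 genes (40.7%) were lower and 0 higher, against 4.46% and 3.89% of all genes. The groups overlapped for each of the 81 genes, where 0.217% of all genes had every nicotine library below every saline library. The genes move together from library to library, so these 33 are not independent observations.

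The genes with the smallest p were Rpl22, Rps15a, Rpl22l1 and Rpl10. Rpl22 ran from 81.7 to 115 CPM with saline (median 91.4) and from 72.5 to 90.1 CPM with nicotine (log2 change -0.25, SE 0.08, adjusted p = 0.555 with edgeR, as for the next 3 genes). Rps15a ran from 104 to 134 CPM (median 110) and then from 92.8 to 110 CPM, with a log2 change of -0.22 (SE 0.07). Rpl22l1 lay between 24.6 and 41.2 CPM with saline (median 28.3) and between 17.1 and 30.1 CPM with nicotine (-0.42, SE 0.14). Rpl10 lay between 139 and 215 CPM with saline (median 151.5) and between 93.4 and 162 CPM with nicotine (-0.39, SE 0.13). In each case the highest nicotine library lay above the lowest saline library. Above 0 were only Rpl28 (0.00), Rps26 (0.02) and the pseudogene Rps3a2 (0.18, 95% interval -0.32 to 0.67).

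Of the genes followed by name, Rps27a had the lowest value, -0.43 (95% interval -0.76 to -0.10), and Rps27 had -0.40 (-0.72 to -0.08). The stalk genes had -0.25 (Rplp0), -0.17 (Rplp1) and -0.23 (Rplp2). Rps6 ran from 180 to 297 CPM with saline (median 191.5) and 166 to 233 CPM with nicotine, and its change was -0.10 (-0.35 to 0.15). Rps4l had -0.01 (-0.27 to 0.24) beside -0.24 for Rps4x, Rpl41 had -0.11 and Rpl3 had -0.24. The median 95% interval of a gene reached 0.26 to either side, wider than the 0.18 of prefrontal cortex despite the larger number of libraries and counts.

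The width of these intervals came with a large spread of the whole family between libraries. Its share of counts was 1.16%, 1.77%, 1.21%, 1.41%, 1.10% and 1.105% in saline Samples 1N to 6N, and 1.15%, 0.995%, 0.961%, 1.31%, 1.10% and 1.03% in nicotine Samples 7N to 12N. Saline Samples 2N and 4N and nicotine Sample 10N stood above the other 9 libraries. Sample 2N held the highest value of 73 of the 80 genes above 1 CPM, and Sample 9N held the lowest value of 50 and Sample 8N of 24. Sample 2N also stood apart in cell type markers, none of them at 0. Its mean log2 CPM was 5.79 for 9 microglia markers (5.13 to 5.57 in the other 11 libraries), 8.54 for 8 oligodendrocyte markers (7.005 to 8.35) and 8.84 for 9 neuronal markers (9.075 to 9.26), and their part in its high level was not tested. The median gene stood 0.54 above its own mean in Sample 2N, 0.29 above in Sample 4N and 0.20 above in Sample 10N on the log2 scale, while Sample 9N stood at -0.31. In each of Samples 2N, 4N and 10N 79 of the 80 genes were above their mean, and in Samples 9N and 12N none was.

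**Figure D4:**
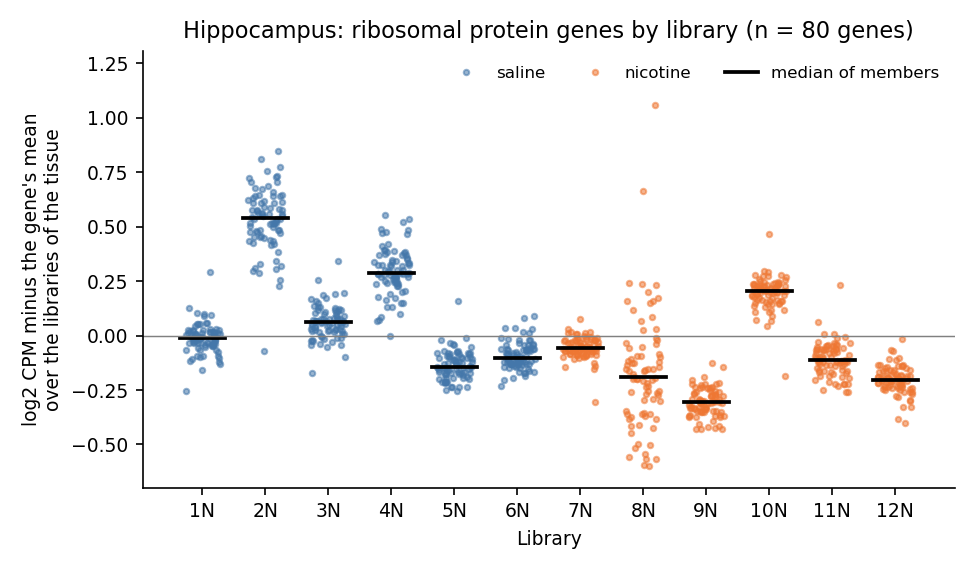
Each point is a ribosomal protein gene (80 genes above 1 CPM) in 1 hippocampal library, plotted as log2 CPM minus the gene's own mean over the 12 libraries, with saline libraries on the left, nicotine libraries on the right and black bars for medians. The genes of a library mostly move together, from a median of -0.31 in Sample 9N to 0.54 in Sample 2N, except in Sample 8N, where single genes range from -0.60 to 1.06.

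Without Sample 2N the median change in hippocampus was -0.14 in place of -0.24, and 7 genes in place of 33 were lower at an unadjusted p under 0.05. That count was 10 without Sample 4N, 11 to 16 without Samples 8N, 9N, 11N or 12N in turn, 50 without Sample 5N and 58 without Sample 10N. It was 60 without the 4 libraries above 1000 CPM of the choroid plexus gene Ttr, which are Samples 2N, 5N, 10N and 11N. The median stayed below 0 without any 1 library, between -0.14 and -0.29. Mean log2 CPM of the family was 6.92 ± 0.257 in saline libraries and 6.71 ± 0.171 in nicotine libraries, again about 1 SD apart. All 12 choroid plexus markers had a change below 0, none passed, and none was at 0. With them as a covariate the median of the family was -0.23. The 7 cortical markers all had a change above 0 with nicotine (median 0.27). Of the 8 hippocampal markers 5 had a change below 0 and 3 above (median -0.28), and no gene of either list passed. Mean log2 CPM of the cortical markers was 4.41 to 4.89 with saline and 4.53 to 5.02 with nicotine. That of the hippocampal markers was 5.90 to 6.39 and 5.75 to 6.25. The part of these markers in the family's lean was not tested.

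Sample 8N differed in kind. The SD of the 80 deviations in this nicotine library was 0.27, against 0.0498 to 0.0777 in the other nicotine libraries and 0.0628 to 0.146 in saline. Rps14, Rpl10 and Rps27a were lowest there relative to their own means (-0.60, -0.59 and -0.57). Rps3a2 and Rps26 were highest (1.06 and 0.66), Rps26 at 178 CPM against 89.2 to 141 CPM in the other 11 libraries. The share of counts from mitochondrially encoded genes was 11.55% in Sample 8N, 9.10% in Sample 2N and 5.60% to 8.17% in the others. Whether RNA quality has a part in these values was not tested.

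Other genes of the translation machinery did not all move with the ribosomal proteins. In prefrontal cortex ribosome assembly and ribosomal RNA synthesis genes leaned the other way. Of 55 tested, 22 rose with LPS and 4 fell, beside 21.5% higher and 19.7% lower over all genes, and the median log2 change was 0.13. Among them Nop14, a small-subunit processing factor, rose from 25.5 ± 0.664 to 46.1 ± 3.76 CPM (0.86, SE 0.08), the nucleolar helicase gene Ddx21 rose by 0.75 (SE 0.10) and Myc, a transcription factor that drives ribosome production, rose by 1.42 (SE 0.15) from a low 3.64 ± 0.633 CPM. Of 21 genes of mTORC1 and translation control 7 rose and 2 fell (median 0.12), so 9 of 21 were called where 41.2% of all genes were, a share near the background. Ddit4 and Sesn1, both inhibitors of mTORC1, rose by 1.21 (SE 0.14) and 0.73 (SE 0.08), and Eef2k, the kinase that inactivates elongation factor 2, by 0.70 (SE 0.10).

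Of 18 elongation factors and other TOP messenger RNAs 7 rose and 2 fell (median 0.04), so 9 of 18 were called, again not far from the 41.2% of all genes. Eif4b rose from 227 ± 12.6 to 332 ± 9.44 CPM (0.55, SE 0.06) and the poly(A)-binding protein gene Pabpc1 rose by 0.35 (SE 0.06), while Eef1g, a subunit of the elongation factor 1 complex, fell from 233 ± 11.7 to 154 ± 5.31 CPM (-0.59, SE 0.06). Genes of the ribosome outside the symbol rule were closer to the family. Rack1, a scaffold on the small subunit, fell from 166 ± 9.79 to 126 ± 11.0 CPM (-0.40, SE 0.08, adjusted p = 0.00198). Rpsa and Fau had -0.20 (adjusted p = 0.0636) and -0.15, and the retrocopy Rps27rt had -0.00. In hippocampus none of these lists had a gene past the threshold, and their medians were -0.02 (ribosome assembly), 0.01 (mTORC1) and -0.08 (TOP messenger RNAs). Of the 6 ribosomal genes outside the symbol rule tested there, 3 lay below 0 and 3 above (median -0.06). Rack1 had -0.27, Fau -0.26 and Rpsa -0.18. Rps27rt had 0.06, Rpl13a-ps1 0.11 and Rpl36al 0.69, with Rpl13a-ps1 and Rpl36al under 1 CPM on average.

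Nuclear genes of the respiratory chain, which like the ribosomal protein genes are mostly short and highly expressed, moved with them from library to library. In prefrontal cortex 28 of 68 fell and 1 rose (median -0.18), where 19.7% of all genes were called lower and 21.5% higher. The smallest p values were those of Ndufb2 (-0.999, SE 0.11), Atp5e (-0.84, SE 0.11) and Ndufc1 (-0.73, SE 0.11). In hippocampus their median was -0.12 and 63 of 68 were below 0, with none past the threshold. Of the 88 ribosomal protein transcripts 69 are under 1000 bases (median 751). The other coding genes under 1000 bases had a median change of -0.15 in prefrontal cortex (248 lower and 105 higher of 807) and -0.08 in hippocampus, against 0.02 and 0.00 for longer coding genes. Their median deviation in a library was 0.15 in Sample 3L and -0.00 in Sample 7L, and -0.12, -0.11 and -0.05 in Samples 4L, 5L and 2L. In hippocampus it was 0.26 in Sample 2N, 0.12 in Sample 4N, 0.13 in Sample 10N and -0.18 in Sample 9N. Longer coding genes stayed between -0.034 and 0.026 in all 20 libraries. They are most of the genes tested (12390 of 17760 in prefrontal cortex and 12437 of 18873 in hippocampus), so the normalisation itself holds their median near 0. The part of transcript length in the result was not tested.

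**Figure D5:**
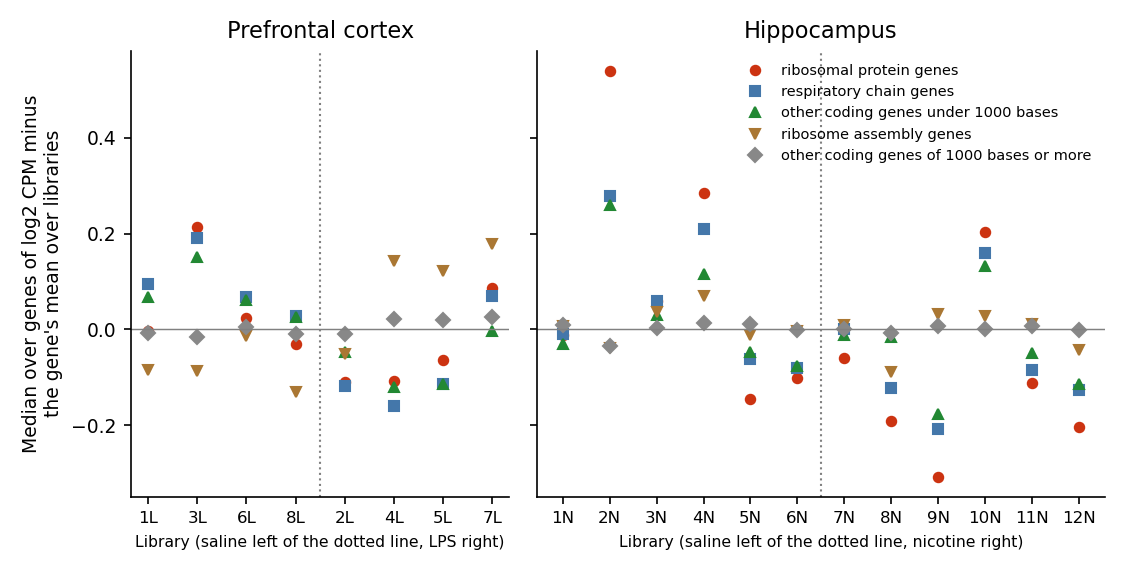
Median deviation in each library (log2 CPM minus the gene's mean over the libraries of its tissue) for ribosomal protein genes, respiratory chain genes, other coding genes under and over 1000 bases, and ribosome assembly genes, with saline left and treatment right of the dotted line. Ribosomal protein, respiratory chain and short genes are highest together in Samples 3L (0.21, 0.19 and 0.15) and 2N (0.54, 0.28 and 0.26), while ribosome assembly genes stand at -0.09 and -0.04 there.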

How the data were processed

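The authors deposited a table of raw counts per gene for each tissue, with no normalization. RNA was poly(A)-selected, per the labels' protocols. fastp, STAR, featureCounts, DESeq2 and build mm10 are named without roles or versions, per the submitters' processing notes. Which annotation and strand option the counting used is not given in the sources used here. Values of overlapping genes, antisense genes and near-identical copies are therefore uncertain. All 20 count columns were matched to libraries. Of 57180 hippocampal identifiers 51884 matched a symbol. No 2 libraries of a group agreed within sampling noise (lowest chi-square per degree of freedom 11.0 and 11.2).

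The 2 tables were fitted separately in edgeR 4.0.16 (R 4.3.3), with TMM factors, filterByExpr, the quasi-likelihood test and Benjamini-Hochberg adjustment over all genes, threshold 0.05. CPM values use the TMM factors, and log2 CPM a prior count of 2. The titles call the libraries biological replicates and say nothing of animals or litters, so the spread that p-values are set against is that of these libraries. Transcript lengths are those of the shortest complete CCDS principal transcript in GENCODE vM21, a rule settled after the genes' lengths had been inspected. Where a gene has several RefSeq promoters, shares with a motif use the first listed for every gene, and the printed windows use the start nearest the GENCODE transcript. Copies were aligned locally.

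The genes, lists and tests were chosen with earlier results of these data known. Named genes were the 8 largest falls and rises past the threshold at 1 CPM or more in prefrontal cortex, the 4 smallest p in each direction in hippocampus (3 genes lay above 0), a list fixed by symbol, and up to 3 genes with the smallest p per list of translation genes. Alternatives were DESeq2 1.42.0, limma-voom (limma 3.58.1), RLE and upper-quartile factors, TMM factors without the family, no filter, a filter of 1 CPM, a replicate block, each library left out, both label groupings, and marker covariates. The fitting steps were tested on simulated data. Ratios between copies and counts at unadjusted p were added after the data had been seen. Values of some genes within these counts are not reported here.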

Additional observations from a re-analysis of the deposited data

Results flagged for a closer look

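In 108 groups examined (the family's mean and share of counts, the spread among its genes, and each named gene, per treatment group) 11 held a library far from the others relative to the group's range. For a single group chance alone gives about 1 in 20. The groups share libraries and their genes move together, so they are not independent, and no excess over chance is read from the 11. In LPS libraries Sample 7L was far above the others in the family's share of counts (1.29% against 1.15% to 1.16%) and in Rplp2 (201 CPM against 172 to 176.5), and Sample 2L in Rpl7l1 (41.5 CPM against 35.3 to 36.4). In cortical saline Sample 3L was far above the others in Rpl22 (91.6 CPM against 74.8 to 76.0), Rps4x (207 CPM against 176 to 178) and Rpl36a (87.6 CPM against 73.0 to 73.8). In hippocampal saline Sample 2N was far above in Rpl22l1 (41.2 CPM against 24.6 to 30.5), Rps6 (297 CPM against 180 to 220) and Rps27l (10.5 CPM against 5.16 to 6.51). In nicotine libraries Sample 8N was far above in the SD of the genes' deviations (0.269 against 0.0498 to 0.0777) and in Rps3a2 (3.15 CPM against 1.20 to 1.77).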

How the results depend on the processing

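In prefrontal cortex 10 genes were lower and 1 higher with DESeq2, limma-voom, RLE and upper-quartile factors, TMM factors without the family, no filter, a filter of 1 CPM and the striatal covariate. Replicate numbers did not pair libraries in prefrontal cortex (correlations of same-numbered deviations -0.16 to -0.03). In hippocampus these correlations were -0.17 to 0.44. Only for number 5 (Samples 5N and 11N, 0.44) was the same-numbered nicotine library the one closest to the saline library. With a replicate block 11 genes were lower and 1 higher in prefrontal cortex, and in hippocampus 36 were lower at unadjusted p, the median was -0.22 and Rps26 stood at -0.0097. Grouped by title, 0 genes were lower and 0 higher, as were 0 of all 17760 genes, and the median was 0.0101. Signs then turned for Rpl13a (0.0571), Rpl22l1 (0.0871), Rpl9 (0.0835), Rps29 (0.10), Rpl37a (0.0935), Rps9 (0.0423), Rps4l (-0.0920), Rplp1 (0.10), Rplp2 (0.0192), Rpl41 (0.0437), Rps27 (0.12), Rpl39 (0.0245), Rpl3 (0.00793) and Rps27a (0.0679), and for the log2 ratios of Rps4l (-0.0795), Rpl22l1 (0.11) and Rps27l (-0.0800). Over the 4 libraries whose labels agree 3 genes were lower and Rplp1 stood at 0.0091. With the striatal covariate Rpl3 stood at 0.0040. With the oligodendrocyte covariate 0 genes were lower and 0 higher, and Rplp0 (0.16), Rps6 (0.0882), Rps27l (-0.000183) and Rpl7l1 (0.0404) changed sign. That covariate did not overlap between saline and LPS libraries, so its part and that of LPS cannot be told apart in this fit. The cause was not tested.

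Leaving out 1 library in turn gave 5 to 18 lower genes in prefrontal cortex, a median of -0.15 to -0.06, and signs that turned for Rps6 (-0.11 to 0.0192), Rpl22 (-0.0201 to 0.13), Rps27l (-0.0665 to 0.18), Rpl3 (-0.0517 to 0.0389) and the Rpl7l1 ratio (-0.12 to 0.00073). Rpl13a, Rpl22l1, Rpl10 and Rps4l kept their call in 18 of 20 alternatives and lost it when grouped by title and with the oligodendrocyte covariate. Rps29 kept its call in 17, Rpl37a in 16, Rpl9 in 15 and Rps9 in 13. In hippocampus 0 genes were called in every alternative. Leaving out 1 library gave 7 to 58 genes lower at unadjusted p, a median of -0.29 to -0.14, and signs that turned for Rps3a2 (-0.10 to 0.27), Rps26 (-0.15 to 0.0842), Rpl28 (-0.0460 to 0.0722), Rps4l (-0.12 to 0.0515) and Rps6 (-0.16 to 0.0207). Rps26 stood at -0.0093 with limma-voom. Without the 4 libraries above 1000 CPM of Ttr 60 genes were lower at unadjusted p and Rpl28 stood at -0.0070. At 10 CPM or more in saline, each gene had at least 3189 counts in prefrontal cortex and 8466 in hippocampus.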

Other observations

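Of the 10 genes that fell with LPS in prefrontal cortex, 6 were among the 10 lowest of 80 in the hippocampal nicotine Sample 8N relative to their own means, among them Rpl10 (-0.59 on the log2 scale), Rpl22l1 (-0.57), Rps29 (-0.56), Rpl9 (-0.55) and Rpl37a (-0.50). Rps9 (-0.41) and Rpl23a (-0.14) lay higher in that order, and Rpl13a (0.23) was among the highest. The order was looked at after both results were seen, and no test was made.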
